A study of Caenorhabditis elegans with 2 samples.

Results

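The proteins of the small (40S) ribosomal subunit are encoded in *Caenorhabditis elegans* by genes whose symbols start with rps-, and 31 such protein-coding genes, rps-0 to rps-30, were taken by symbol from 19973 nuclear protein-coding genes. The mitochondrial genes (mrps-) were left out. Binding was measured by chromatin immunoprecipitation and sequencing (ChIP-seq) of MDT-29, a subunit of Mediator, in whole L4 larvae aged 48 hours. There was 1 group of 2 samples, which the labels give as biological replicates 1 and 2. Both came from strain RJP4521, which carries the CRISPR allele rp133 with a degron and GFP inserted at mdt-29. The labels spell the insertion Degron::GFP::mt-29 in one place and an mdt-29 fusion with eGFP in another, and they name no further treatment. The worms were synchronised by bleaching and then starving the L1 larvae, and the chromatin was sheared by sonication and precipitated with an antibody against GFP. An untagged strain and an input library were not analysed here, no second condition was compared, and no test was run, so all comparisons below are descriptions of 1 set of peak lists. Sequencing depth is not known here, and intervals cover the counting of genes only. Whole larvae mix all tissues, so binding in fewer cells and weaker binding in each cell cannot be told apart.

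The small subunit reads the messenger RNA: it scans for the start codon and holds the decoding centre, where codon and anticodon meet. Its proteins are made in equal numbers with those of the large subunit, and their genes are among the most strongly transcribed in growing larvae. Mediator is a large complex that bridges transcription factors bound upstream of a gene and RNA polymerase II at the start site, and MDT-29 is counted among its tail subunits. In worms many messenger RNAs, those for ribosomal proteins included, have their first stretch (the outron) replaced by a short spliced leader. The annotated 5′ end of such a gene is then the splice site, and transcription starts some way upstream of it.

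The DNA under the peaks is shown for the 6 rps genes on chromosomes III and IV whose summit window lay outside exons of protein-coding genes, so that the position and base composition of these sites can be read directly. Each line gives 101 bases of the WBcel235 (ce11) genome in the direction of the rps gene, from 50 bases upstream to 50 downstream of the summit, with the 11 bases centred on the summit in capitals. They are ordered by the strength of the peak. The windows are chrIII:4475603-4475703 (plus strand) for rps-1, chrIV:385480-385580 (plus) for rps-24, chrIII:5679076-5679176 (plus) for rps-12, chrIV:12391289-12391389 (minus) for rps-23, chrIV:7084917-7085017 (minus) for rps-4 and chrIV:1659187-1659287 (plus) for rps-28.
rps-1: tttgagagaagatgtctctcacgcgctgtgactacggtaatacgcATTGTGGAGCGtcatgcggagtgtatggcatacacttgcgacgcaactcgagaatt
rps-24: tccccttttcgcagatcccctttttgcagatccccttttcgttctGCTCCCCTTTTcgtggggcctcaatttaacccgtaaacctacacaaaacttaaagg
rps-12: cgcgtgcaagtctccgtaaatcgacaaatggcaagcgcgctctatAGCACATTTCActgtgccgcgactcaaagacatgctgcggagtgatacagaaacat
rps-23: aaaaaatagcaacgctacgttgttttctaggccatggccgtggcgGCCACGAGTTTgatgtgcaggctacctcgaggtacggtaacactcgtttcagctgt
rps-4: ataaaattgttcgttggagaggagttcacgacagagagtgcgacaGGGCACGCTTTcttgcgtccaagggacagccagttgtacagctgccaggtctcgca
rps-28: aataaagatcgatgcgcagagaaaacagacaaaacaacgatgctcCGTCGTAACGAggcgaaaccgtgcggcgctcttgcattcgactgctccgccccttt
The G+C content of these windows was 49.5% for rps-1, 47.5% for rps-24, 50.5% for rps-12, 51.5% for rps-23, 53.5% for rps-4 and 52.5% for rps-28. The rps-24 window repeats a run of 8 bases, CCCCTTTT, 4 times, and a run of that length was repeated as often in 22 of 642 promoter peak windows (3.43%). No run of 8 bases occurred more than 1 time in the other 5 windows. The longest run that any pair of windows shared was TGCGGAGTG, 9 bases long, which lies downstream of the summit in both rps-1 and rps-12. On either strand it occurred within 500 bp upstream of 2 of the 31 rps genes and of 25 of 19973 genes (0.125%). Of those 25 genes 6 were bound: rps-1, rps-12, ska-3 (the divergent neighbour of rps-12), dld-1, K02A6.3 and mdt-26. This run was picked from the windows of bound genes after their values were seen, so its presence at bound genes is no result.

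MDT-29 peaks lay at 11 of the 31 rps genes. A gene was called bound when the summit of a peak in the authors' main thresholded list was no more than 500 bp from a 5′ end annotated for one of its transcripts. By that rule 11 of 31 rps genes (35.48%, exact Clopper-Pearson 95% interval 19.2 to 54.6%) and 708 of 19973 protein-coding genes (3.54%) were bound. The bound members were rps-1, rps-4, rps-12, rps-15, rps-16, rps-19, rps-20, rps-23, rps-24, rps-26 and rps-28. The same 11 were bound in the authors' conservative list, against 3.5% of all genes. The list made from replicate 1 alone held 7 of 31 rps genes (22.58%, 9.59 to 41.1%), against 1.69% of all genes. The list made from replicate 2 alone held 10 of 31 (32.26%, 16.7 to 51.4%), against 2.35% of all genes.

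On chromosome I 4 of 8 rps genes were bound, on II 0 of 1 and on III 2 of 9. On IV 4 of 10 were bound and on V 1 of 3, and the X chromosome has no rps gene. The share of all genes bound on each chromosome is not given, so nothing is read from these counts. The proteins of the bound members do not share 1 place in the subunit. By what is known of their homologues, rps-23 and rps-15 encode proteins near the decoding centre. Those of rps-26 and rps-28 lie at the channel where the messenger leaves, and that of rps-20 in the head. Bacteria lack the proteins of rps-24, rps-12, rps-4 and rps-19, among others. The members not bound include rps-3, at the channel where the messenger enters, rps-6, the substrate of S6 kinase, and rps-14 of the platform.

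Peak strength is given as the authors' signal value, a number without a stated unit that is never negative, and a shared scale across the samples is not stated. Reproducibility is given as the irreproducible discovery rate (IDR), on a −log10 scale whose ceiling is 5 in the deposited files. For the main list it compares a pair of lists other than those of replicate 1 and replicate 2. It is therefore not a direct measure of agreement between the samples. The 11 members ranked between 106 and 905 of 1705 main peaks by signal, and 10 of them were above the median of the list. Their median signal was 121.0, against 104.2 over all bound genes. The summit offset, given below for each gene, is the distance of the summit from the nearest 5′ end of that gene, negative upstream.

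The strongest peaks were at rps-19, rps-1, rps-24 and rps-12. At rps-19 (WBGene00004488), whose human homologue is mutated in Diamond-Blackfan anaemia, the peak at I:9625999-9626137 had a main signal of 255.2 (rank 106, −log10 IDR 4.73). In the samples its signal was 120.0 in replicate 1 and 130.2 in replicate 2 (125.1 ± 7.212, SD, n = 2). The summits lay 272 and 266 bp upstream of the gene in those samples, and 265 bp upstream in the main list, so the position hardly differed between them. The ratio of the replicate 2 signal to that of replicate 1 was 1.08, against a median of 1.25 over the main peaks with a value in both. Without a shared scale it does not say whether strength was equal. At rps-1 (WBGene00004470), homologue of human RPS3A, the peak at III:4475587-4475749 had a main signal of 253.2 (rank 109, −log10 IDR 4.885). Its signal was 124.9 in replicate 1 and 142.7 in replicate 2 (133.8 ± 12.59, SD, n = 2), the highest of the 31 genes in both samples. The main summit lay 265 bp upstream, the same distance as at rps-19.

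At rps-24 (WBGene00004493), another gene whose human homologue is mutated in Diamond-Blackfan anaemia, the peak at IV:385370-385689 had a main signal of 232.0 (rank 128, −log10 IDR 4.495). Its signal was 92.25 in replicate 1 and 135.3 in replicate 2 (113.8 ± 30.44, SD, n = 2). The ratio of replicate 2 to replicate 1 was higher here (1.47) than at rps-19 (1.08) and rps-1 (1.14). The summit lay 357 bp upstream in the main list, in the repeated stretch printed above. At rps-12 (WBGene00004481), encoding a protein of the subunit's head, the peak at III:5679074-5679194 had a main signal of 202.3 (rank 166, −log10 IDR 4.284). Its signal was 81.97 in replicate 1 and 121.5 in replicate 2 (101.7 ± 27.95, SD, n = 2). With its main summit 172 bp upstream, rps-12 was the only bound member with a summit between 100 and 200 bp upstream. A step down followed to rps-23 (WBGene00004492), which encodes the protein at the decoding centre that helps check the codon match, with a main signal of 152.1 (IV:12391179-12391498, rank 336, −log10 IDR 3.697). Its signal was 74.96 in replicate 1 and 78.23 in replicate 2 (76.59 ± 2.312, SD, n = 2), with the summit 286 bp upstream.

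The other 6 members had main signals between 96.42 and 121.0. The first, rps-16 (WBGene00004485), encodes a protein whose tail reaches towards the transfer RNA in the P site, and its peak at V:15000312-15000631 had a main signal of 121.0 (rank 554, −log10 IDR 3.225). Its signal was 45.31 in replicate 1 and 73.64 in replicate 2 (59.48 ± 20.03, SD, n = 2). It was the only bound member with its nearest summit downstream, 69 bp inside the gene in a coding exon, and its replicate 1 value was the lowest of the bound members. At rps-4 (WBGene00004473, homologue of human RPS4X) the peak at IV:7084807-7085126 had a main signal of 117.2 (rank 591, −log10 IDR 3.115), with 51.97 in replicate 1 and 65.29 in replicate 2 (58.63 ± 9.419, SD, n = 2). At rps-15 (WBGene00004484), near the decoding centre, the peak at I:8816406-8816725 had a main signal of 116.2 (rank 605, −log10 IDR 3.013), with 49.59 in replicate 1 and 71.12 in replicate 2 (60.36 ± 15.22, SD, n = 2). These 3 genes had nearly equal main signals, and their ranges over the samples overlapped.

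At rps-28 (WBGene00004497), which encodes a protein at the messenger's exit, the peak at IV:1659077-1659396 had a main signal of 115.7 (rank 609, −log10 IDR 3.169), with 57.74 in replicate 1 and 60.29 in replicate 2 (59.02 ± 1.803, SD, n = 2). It was the only bound member in the replicate 1 list and not in the replicate 2 list. The deposited signal value was no lower in replicate 2, on a scale that may differ between the samples. At rps-26 (WBGene00004495), another protein of the exit channel, the peak at I:14759342-14759661 had a main signal of 110.2 (rank 674, −log10 IDR 2.93), with 52.15 in replicate 1 and 58.69 in replicate 2 (55.42 ± 4.624, SD, n = 2). At rps-20 (WBGene00004489), of the head, the peak at I:14469178-14469497 had a main signal of 96.42 (rank 905, −log10 IDR 2.913), with 46.33 in replicate 1 and 58.67 in replicate 2 (52.5 ± 8.726, SD, n = 2). It was the weakest of the bound members, and in signal rps-28, rps-26 and rps-20 overlapped between samples.

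**Figure D1:**
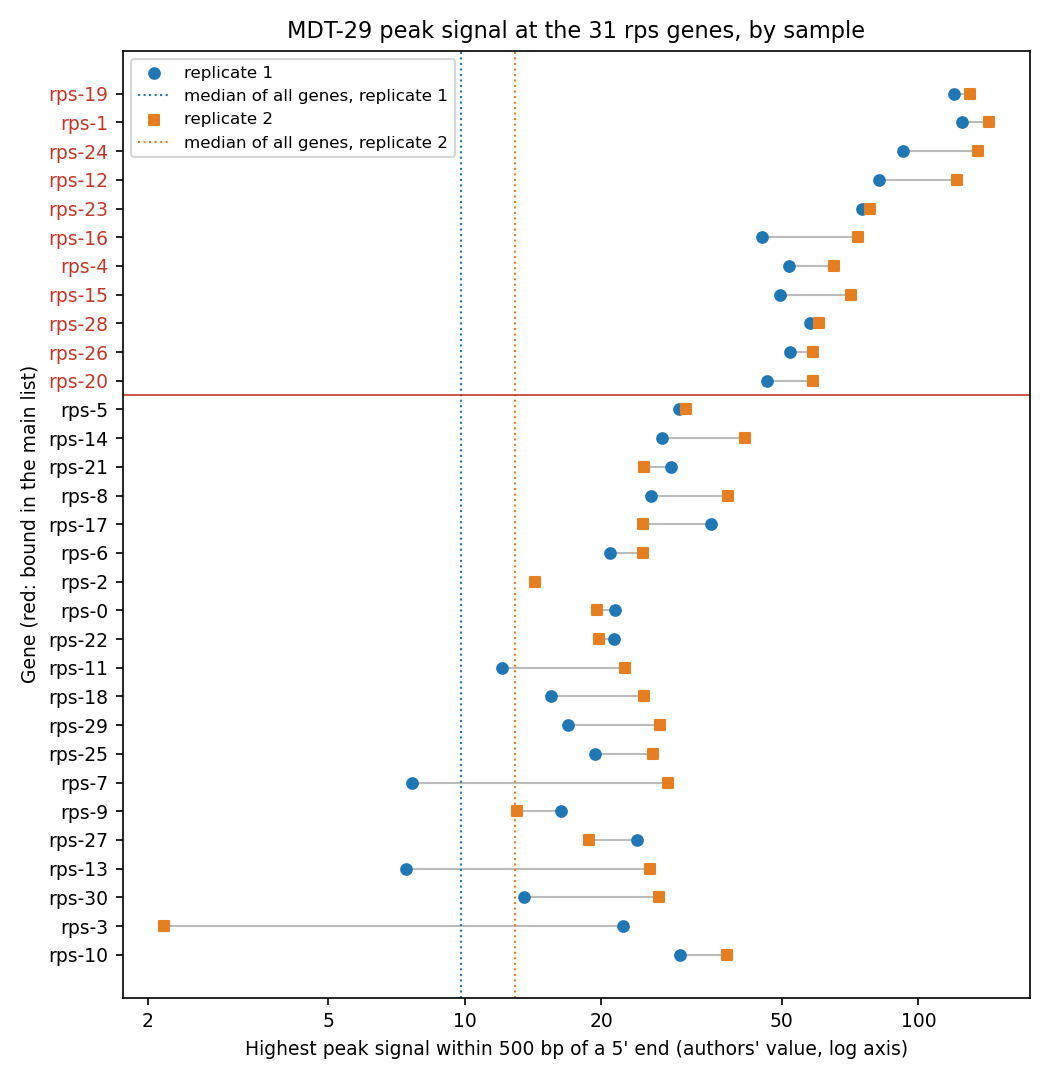
Highest peak signal within 500 bp of a 5′ end in the ranked list of each sample (x axis, the authors' signal, log scale) for the 31 rps genes (y axis, ordered by main signal, bound genes in red above the line). Circles are replicate 1 and squares replicate 2, and dotted lines mark the medians of all genes (9.815 in replicate 1, 12.91 in replicate 2). All 11 bound genes lie at 45.31 or above, and all 20 others at 41.54 or below.

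The bound members were compared between the replicates. The replicate 2 signal was above the replicate 1 signal at 11 of 11 bound members, with a median ratio of 1.26 (range 1.04 to 1.63), against 1.25 over 1675 main peaks with a value in both samples. The thresholded lists of both samples held 6 of the 11 peaks (54.5%: rps-1, rps-4, rps-12, rps-19, rps-23 and rps-24), against 263 of 708 over all bound genes (37.1%). The other 5 were in 1 list: rps-28 in that of replicate 1, and rps-15, rps-16, rps-20 and rps-26 in that of replicate 2. All 11 had a peak in the ranked list of each sample within 100 bp of each other. These genes were called from a list made from both samples, which favours such closeness. The share over all bound genes is not given, so nothing is read from it. Across the 30 rps genes with a value in both samples, signal in replicate 1 and replicate 2 had a Pearson r of 0.948 and a Spearman rho of 0.778, as a description across genes, which are not independent replicates. Within the 11 bound genes r was 0.916, and within the 19 others it was 0.227. Bound genes were set apart by their signal in a list made from these samples, so the split narrows the range in each group and nothing is read from these values.

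**Figure D2:**
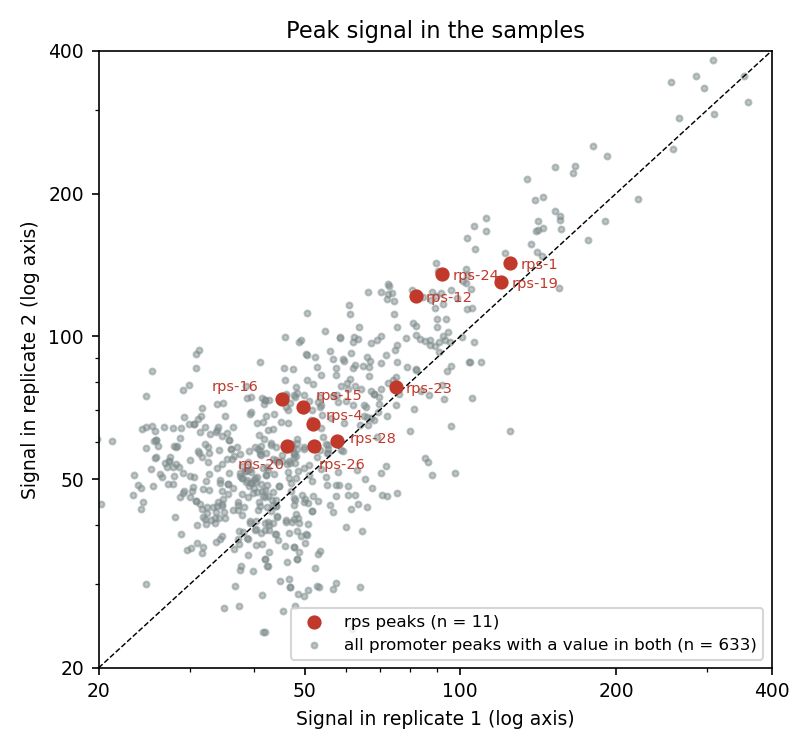
Signal of promoter peaks in replicate 1 (x axis) and replicate 2 (y axis), both on log axes from 20 to 400, with the dashed line marking equal values. Red points are the peaks of the 11 bound rps genes and grey points the promoter peaks with a value in both samples (616 of 633 fall inside the axes); all 11 red points lie above the line, by 1.04 to 1.63 times.

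The summits lay upstream of the genes, at a distance. Of the 11 bound members 10 (90.9%) had their nearest summit upstream, against 77.4% of all bound genes. The median offset was −285 bp over the bound rps genes (range −454 to 69 bp) and −169.5 bp over all bound genes. In the range of 250 to 500 bp lay 8 of 11 rps summits (72.7%), all upstream, against 287 of 708 (40.5%) over all bound genes, of which 235 (33.2%) were upstream. The 8 were rps-23 at 286, rps-1 and rps-19 at 265, rps-4 at 285, rps-24 at 357, rps-15 at 373, rps-26 at 428 and rps-28 at 454 bp upstream. Only rps-12, rps-16 and rps-20 (235 bp upstream) lay within 250 bp, which is 9.677% of the rps genes (2.04 to 25.8%) against 2.11% of all genes. Between 200 and 300 bp upstream lay 5 of the 11 (45.45%), against 18.79% of all bound genes.

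The place of a summit is known only so well. Of the main peaks 88.1% are 320 bp wide, with the summit at the centre in nearly all of them, and 8 of the 11 rps peaks have that width. The 3 narrower ones are rps-1, rps-12 and rps-19. In the samples the summits of the 11 moved by at most 58 bp from the main summit, less than the distance of most of them from the gene.

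**Figure D3:**
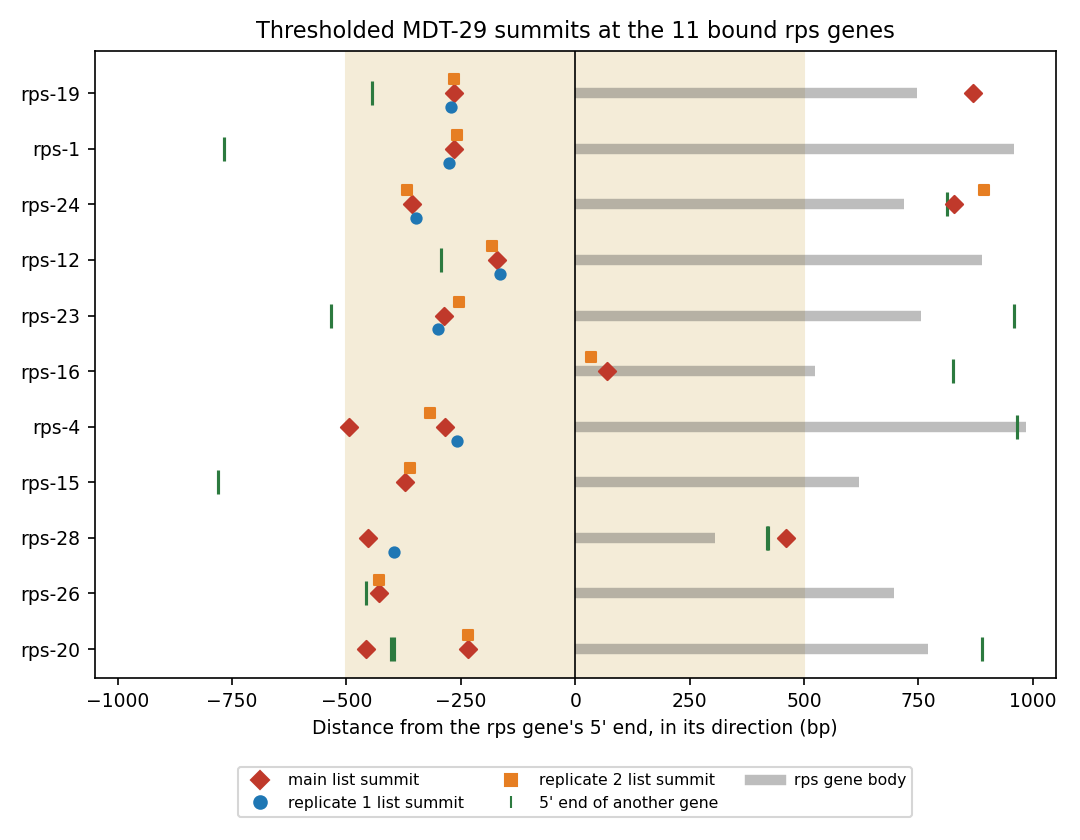
Summits of thresholded peaks (x axis, distance in bp from the 5′ end of the rps gene, negative upstream) at the 11 bound rps genes (rows, ordered by main signal), with diamonds for the main list, circles for replicate 1 and squares for replicate 2, grey bars for the rps gene and green ticks for 5′ ends of other protein-coding genes; the 500 bp window is shaded. In 10 rows the nearest main summit lies left of 0, and in rps-16 it lies at 69 bp.

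**Figure D4:**
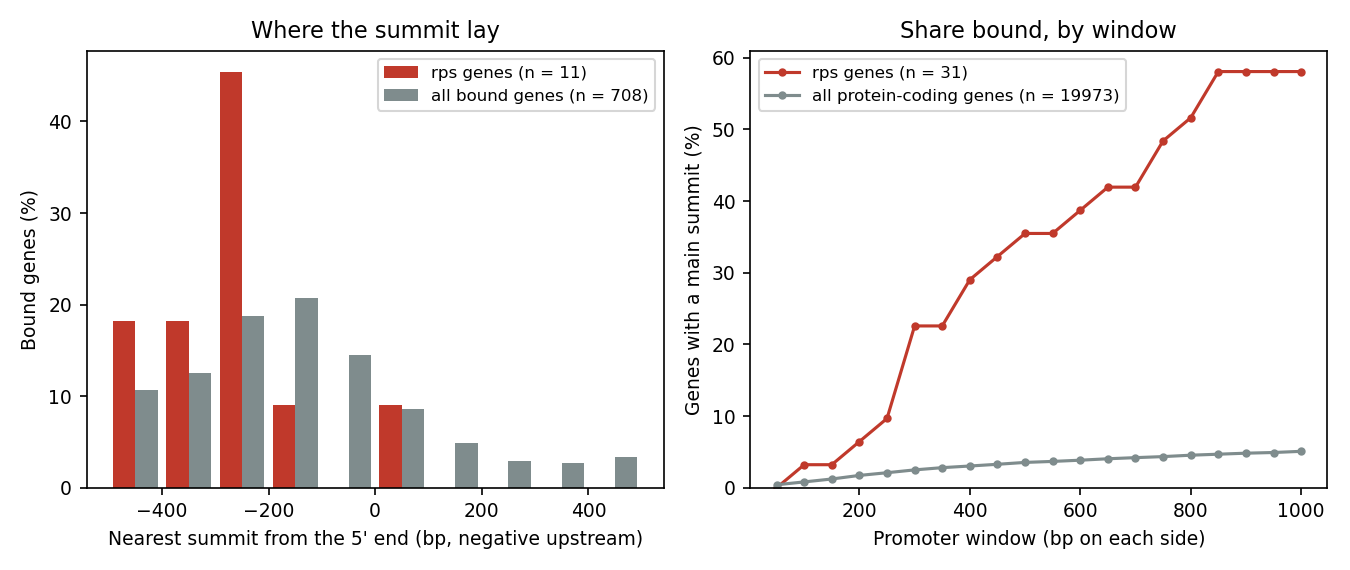
Left, share of bound genes (y axis, %) by offset of the nearest main summit in bins of 100 bp (x axis), for 11 rps genes in red and 708 bound genes in grey. Right, share of genes with a main summit (y axis, %) within a window on each side of the 5′ end (x axis, bp), for 31 rps genes in red and 19973 genes in grey; the rps line runs through 9.677% at 250 bp, 35.48% at 500 bp and 58.06% at 1000 bp.

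The share bound grew with the window, at rps genes in steps. With 200 bp on each side it was 6.452% of rps genes against 1.732% of all genes, and with 300 bp it was 22.58% against 2.503%. At 1000 bp 18 of 31 rps genes were bound (58.06%, 39.1 to 75.5%), against 5.09% of all genes. Just outside the limit lay rps-29 at 593 and rps-18 at 622 bp upstream, and just inside it rps-26 and rps-28.

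Many rps genes have a divergent upstream neighbour, counted here at any distance (14392 bp at rps-28). The upstream neighbour ran in the opposite direction at 22 of 31 rps genes (71%), 9 of the 11 bound (81.8%) and 13 of the 20 not bound (65%), against 46.2% of all genes. At 6 of 11 bound rps genes (54.5%) the peak also lay within 500 bp of another protein-coding gene, against 31.6% of all bound genes. A link between this sharing and the divergent layout was not tested. The partners were hsr-9 at rps-19, ska-3 (a spindle and kinetochore gene) at rps-12, dpm-3 (dolichol phosphate mannose synthesis) at rps-23, F36A2.9 at rps-15, tmem-107 (a ciliary gene) at rps-26 and ekl-4 at rps-20. In 5 of these the summit was nearer to the partner: 180 bp upstream of hsr-9, 121 bp upstream of ska-3, 248 bp upstream of dpm-3, 162 bp upstream of ekl-4 and 29 bp upstream of tmem-107. At rps-15 the rps gene was nearer, with F36A2.9 408 bp away. The peak lists cannot say which of a divergent pair a peak belongs to. The 5 genes whose peak had no partner were rps-1, rps-4, rps-16, rps-24 and rps-28. Of these, rps-1 faces ifet-1 (encoding a partner of the cap-binding protein eIF4E) across 767 bp, with its summit nearer to rps-1. At rps-16 the gene just upstream, in the same direction and 109 bp away, is fib-1, which encodes the nucleolar methyltransferase fibrillarin. Its own peak, 54 bp upstream of fib-1, had a main signal of 85.9, with 27.11 in replicate 1 and 53.0 in replicate 2.

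A second main summit lay within 500 bp of rps-4, rps-20 and rps-28. At rps-28 it lay 461 bp downstream, past the end of the gene in a coding exon of Y41D4B.4, with a main signal of 96.35, and 48.07 in replicate 1 and 42.23 in replicate 2. At rps-20 it lay 458 bp upstream in a coding exon of ekl-4, with a signal of 20.81 (rank 1659), and it overlapped the same sample peaks as the first rps-20 peak (46.33 in replicate 1 and 58.67 in replicate 2). At rps-4 it lay 494 bp upstream with a signal of 2.799 (rank 1702), although its −log10 IDR, 3.113, was close to the 3.115 of the first peak. The rps-4 pair also overlapped the same peaks in the samples, so the weak members at rps-4 and rps-20 are not separate observations. Farther off, rps-24 had another main summit 827 bp downstream (signal 79.58), near the 5′ end of T07A9.14, and rps-19 had another 870 bp downstream (85.3).

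Small RNA genes were about as rare near the rps summits as near those of all bound genes. Ribosomal protein genes can carry small nucleolar RNA (snoRNA) genes in their introns, which guide the modification of ribosomal RNA. Counted as small RNA genes were transfer RNA (tRNA), snoRNA, small nuclear RNA and spliced leader genes. Other classes, such as microRNA genes, were not counted. The annotation has a snoRNA gene inside 5 rps genes, of which rps-4, rps-12 and rps-23 were bound and rps-13 and rps-29 were not. The share of such host genes among all bound genes is not given, so nothing is read from these counts. Within 250 bp of the summit lay a small RNA gene at 1 of 11 bound members, against 87 of 708 bound genes (12.3%). It was the snoRNA gene F39B2.14, 90 bp from the rps-26 summit. At rps-12 the snoRNA gene F54E7.10, inside the rps gene, was 252 bp from the summit. Those inside rps-23 (F28D1.13, 684 bp) and rps-4 (Y43B11AR.7, 1037 bp) were farther off. For the other bound members the nearest was the tRNA gene WBGene00014402 at rps-1 (4695 bp), the snoRNA genes Y41D4B.36 at rps-28 (10605 bp) and Y66H1B.6 at rps-24 (11927 bp), and the tRNA genes WBGene00014330 at rps-16 (12562 bp), WBGene00014424 at rps-19 (20224 bp) and WBGene00014301 at rps-15 (35328 bp). At rps-20 it was again F39B2.14, 289840 bp away. No rps summit lay inside a small RNA gene. Within 500 bp of the rps-1 summit the annotation also has F56F3.10 and F56F3.11, noncoding RNA genes of no named small class.

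The other 20 rps genes had only weaker peaks within 500 bp, in the ranked lists. None of them was in the thresholded list of a single sample. In the ranked lists, which hold peaks far below the threshold, every one of the 31 rps genes had a peak within 500 bp in the main ranked list, against 66.6% of all genes. The highest such signal had a median of 54.39 over rps genes and 21.74 over all genes. In replicate 1, 30 of 31 rps genes had a ranked peak, against 56% of all genes, with medians of 27.24 over rps genes and 9.815 over all genes when a gene with no peak counts as 0. In replicate 2, 31 had one, against 59.2% of all genes, with medians of 28.04 over rps genes and 12.91 over all genes. The rps genes above the 90th percentile of all genes were 16 (51.6%) in replicate 1 and 14 (45.2%) in replicate 2. These medians and counts cover all 31 rps genes. The 11 bound ones, called by their peaks in the main list, were above that percentile in both samples. Over the other 20 alone the median signal was 32.87 in the main ranked list. Their median percentile among all genes was 68.65 there, 79.75 in replicate 1 and 79.5 in replicate 2.

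Bound and other rps genes did not overlap in signal in either sample. In replicate 1 the bound genes had 45.31, 57.74 and 124.9 as the lowest, median and highest value, and the others 7.412, 21.28 and 34.9 (19 genes, since rps-2 had no peak there). In replicate 2 the bound genes had 58.67, 73.64 and 142.7, and the others 2.172, 24.88 and 41.54. The main list was made from both samples, so this gap is a description of its threshold. The others were not at the bottom of the genome, since 19 of the 20 lay above the median of all genes in the main ranked list. Above the 90th percentile lay 5 (rps-5, rps-8, rps-14, rps-17 and rps-21), and above the 95th lay 2. Those 2 were rps-5 (main signal 75.0, with 29.71 in replicate 1 and 30.67 in replicate 2) and rps-14 (72.32, with 27.24 and 41.54). The peak of rps-14 lay 284 bp upstream, in the 662 bp between it and the large subunit gene rpl-36, while that of rps-5 lay 263 bp downstream. The exception below the median was rps-10 (18.55 in the main ranked list), although the samples gave it 29.74 and 37.87 at other places, 472 and 350 bp downstream.

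The strongest peak of the main ranked list lay upstream at 10 of 11 bound rps genes and at 10 of the 20 others, and downstream at 1 and 10. At the bound genes this is the called peak itself, and the share over all genes is not given, so nothing is read from this split. In the samples the strongest peaks of replicate 1 and replicate 2 lay within 100 bp of each other at 11 of 11 bound genes and at 6 of the 19 others with a peak in both. The main list was made from both samples, though the pair of lists compared for its threshold was not the single-sample lists. Closeness at bound genes is thus not independent of how they were called, and nothing is read from this difference. Only the strongest peak of each sample was compared. As a ratio the samples differed most at rps-3, with 22.37 in replicate 1 and 2.172 in replicate 2 at nearly the same place (301 and 320 bp upstream), while rps-7 had 7.642 at 94 bp downstream in replicate 1 and 28.04 at 174 bp upstream in replicate 2.

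Of the 20 genes, 7 had a main summit between 500 and 1000 bp away and 13 had none within 1000 bp. Among all 19973 genes 708 (3.54%) had a main summit within 500 bp and 1017 (5.09%) within 1000 bp. Upstream, rps-29 (signal 81.55, with 31.73 in replicate 1 and 34.96 in replicate 2) had its summit 26 bp into snt-2, a synaptotagmin gene. The rps-18 summit (101.8, with 46.95 and 54.04) lay 207 bp into sec-61.A, which encodes the channel of the endoplasmic reticulum. Both summits were thus nearer to the divergent neighbour. Downstream, the summit of rps-25 (84.98, with 51.99 and 46.17) lay 233 bp upstream of inx-7, an innexin gene, and that of rps-30 (75.46, with 44.33 and 41.5) 20 bp into C26F1.3. The summits of rps-6 (115.5, with 54.59 and 61.71), rps-17 (92.4, with 38.5 and 55.76) and rps-13 (93.57, with 50.73 and 44.29) had the rps gene itself as the nearest 5′ end, 834, 763 and 809 bp away. That of rps-13 lay inside the gene, 227 bp from its snoRNA gene C16A3.11. The 13 without a main summit within 1000 bp were rps-0, rps-2, rps-3, rps-5, rps-7, rps-8, rps-9, rps-10, rps-11, rps-14, rps-21, rps-22 and rps-27.

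Motifs were counted at the rps promoters beside all promoters, with no test. Each motif was searched on both strands in the 300 bases from 250 before to 50 after the 5′ end, and a match describes the letters only. The heat shock element GAANNTTC occurred in 8 of 31 rps promoters (25.8%), against 18.5% of all promoters, in 2 of the 11 bound and 6 of the 20 others. Its longer form, extended by NNGAA, occurred in 0 rps promoters, against 1.97%. TATAAA occurred in 9 of 31 (29%), against 37.9%, and the GATA motif (AGATAA or TGATAA) in 16 (51.6%), against 44.6%. CCAAT occurred in 11 (35.5%), against 45.5%, the GC box GGGCGG in 2 (6.45%), against 7.83%, and the transfer RNA box B, GTTCGANNC, in 1 (3.23%), against 1.58%. The E-box CACGTG (5.82% of all promoters) and GAGAGAGA (3.54%) occurred in none of the 31. A block of 8 T occurred in 10 (32.3%), against 32.5%, and it stood in 2 of the 11 bound and 8 of the 20 others.

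Since most summits lay outside those 300 bases, the same motifs were also counted in 300 bases around the 11 summits, a choice made after seeing the data. The block of 8 T stood in 6 of 11 (rps-1, rps-15, rps-19, rps-20, rps-23 and rps-26), against 17.4% of 642 promoter peaks. GAANNTTC stood in 3 of 11 (rps-19, rps-20 and rps-26), against 20.4%, and its longer form in 1 (rps-26), against 7.17%. The GATA motif stood in 3, against 34.3%, CCAAT in 4, against 41.4%, and box B in none, against 8.41%. TATAAA stood in 1 (rps-4), against 23.2%, the E-box in 1 (rps-28), against 12.3%, the GC box in 2 (rps-19 and rps-28), against 13.7%, and GAGAGAGA in none, against 6.23%. The G+C content around the rps summits had a median of 38.7% (31 to 45.3%), against 41.3% around all promoter peaks. At the promoters the medians were 34% for bound rps genes, 33% for the other rps genes and 34.3% for all genes.

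Other translation genes give these values a setting. Of the 47 large subunit genes (rpl-) 11 were bound (23.4%, 12.3 to 38%), an interval that overlaps that of the rps genes. Their summits lay alike, with 10 of 11 upstream, 8 between 250 and 500 bp and a median offset of −258 bp, against −285 bp at rps genes. The bound rpl genes had a median signal of 187.1, and the highest, rpl-3 at 606.0, was above the highest rps gene, rps-19 at 255.2. Elongation factor genes (eef-) were bound at 5 of 6 (83.3%, 35.9 to 99.6%), initiation factor genes (eif- and ife-) at 1 of 30 (3.33%), a list of ribosome assembly genes at 3 of 13 (23.1%) and genes for the mitochondrial ribosome at 0 of 70 (upper limit 5.13%). The small subunit proteins without an rps symbol, ubl-1 (a ubiquitin fusion) and rack-1 (a scaffold on the subunit's head), were not bound. The ribosome assembly genes were named singly and not by a shared start of the symbol, and those bound were fib-1, nol-58 and pro-1. No difference between these lists was tested.

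**Figure D5:**
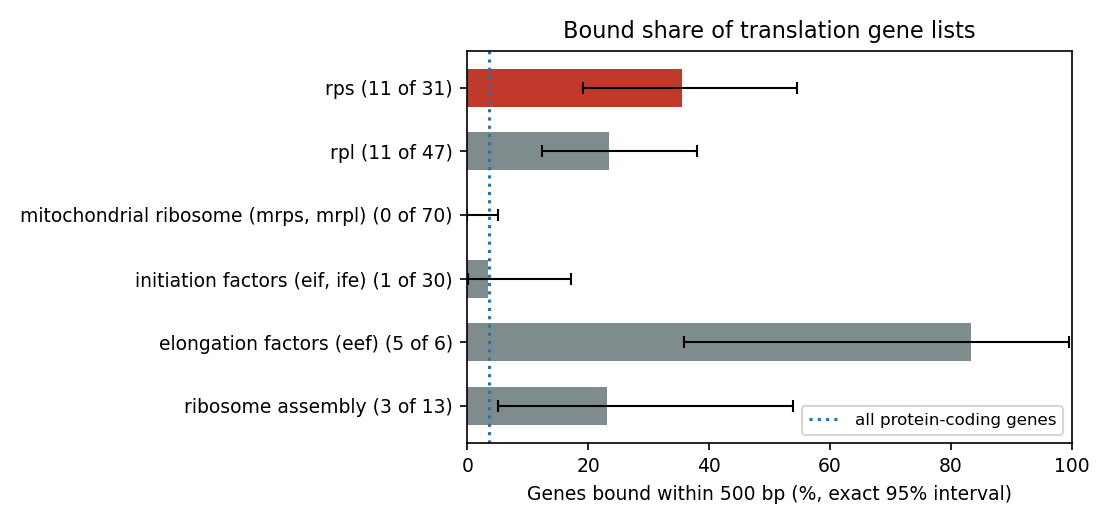
Share of genes bound within 500 bp (x axis, %) for lists of translation genes (y axis, with bound and total counts), rps genes in red and other lists in grey, with exact 95% intervals for counting only and a dotted line at the share of all protein-coding genes, 3.54%. Lists were chosen by the start of the symbol, except for ribosome assembly, whose 13 genes were named singly. The rps bar stands at 35.5% and the interval reaches from 19.2 to 54.6%.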

How the data were processed

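ChIP-seq peaks of GFP-tagged MDT-29 were available as lists for 2 samples of 1 group. Coordinates are on ce11 per the labels; the aligner and the peak caller are not given in the sources used here. Deposited notes give alignments of both samples as the source of the main list (1705 peaks) and the conservative list (1690 peaks). The lists of 777 and 1050 peaks come from replicate 1 and replicate 2 alone. Each used a further file whose role is not named. The authors deposited for each peak a signal, which measures its strength, and a score, a scaled form of the IDR, and in ranked lists the −log10 of the global IDR. Thresholded lists hold peaks with a score of 830 or more. In the main list 59 peaks past that minimum had been taken out, and 0 of them lay within 1000 bp of an rps gene. Of the pair of signal values in the main ranked list 2.53% and 2.36% occur in the lists of replicate 1 and replicate 2, against 64.2% and 68.1% for the conservative list, so the main list did not compare the single-sample lists. Since a ratio or SD over the samples includes any difference in the scale of signal, these are descriptions.

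Genes and transcripts came from Ensembl release 115 of WBcel235. Of 19952 annotated start codons 99.9% read ATG in the genome used. A gene was bound when a main summit lay within 500 bp of a transcript 5′ end; positions are printed counting from 1. For the level in each sample, a bound gene took the highest signal among peaks overlapping its main peak, and every gene the highest signal of a ranked peak with its summit within 500 bp. A peak was found in a sample when that sample's list overlapped it by at least 1 bp. All bound rps genes, the unbound ones with a main summit between 500 and 1000 bp, the genes sharing a peak and the nearest small RNA genes were named, and the rest were counted. The members and the lists were chosen with earlier results of these data known. Genes that share a peak are counted separately. The matching of summits to genes was tested on simulated data. Python 3.11.15 with numpy 2.4.6, scipy 1.17.1, pandas 2.3.3 and matplotlib 3.10.9 was used. Other windows, lists, thresholds, gene starts and single samples were tried as alternatives.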

Additional observations from a re-analysis of the deposited data

How the results depend on the processing

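Of 13 alternatives, 9 left the count of 11 bound rps genes within 1.5 times. It was 11 with the conservative list, with start codons or the most upstream 5′ end, and with peaks of signal under 10 left out (a choice made after seeing the data). It was 10 among peaks above the median signal, 9 at a global IDR of at most 0.001 and 13 when any part of the peak counted. It was 3 at 250 bp, 18 at 1000 bp, and 6 when each peak was given to its nearest gene, against 598 of all genes. Leaving out 1 replicate gave 7 (without replicate 2) to 10. All genes bound, 708, became 421 at 250 bp, 394 among peaks above the median signal, 325 at the IDR limit of 0.001, and 337 to 469 with 1 replicate left out. The median rps offset of −285 bp became −172 bp at 250 bp, −265 bp at 1000 bp and −275 to −262 bp with 1 replicate left out. The count upstream was 2 of 3 at 250 bp and 12 of 18 at 1000 bp, against 10 of 11. The count with a small RNA gene near the summit was 2 within 500 bp and 0 with the summit inside it, against 1. By ranked lists 11 of the bound rps genes were found in both samples, against 6, but 1675 of the 1705 main peaks also had a value in both. With an overlap of 50% of both peaks the count of bound rps genes found in both samples was 4. No paired analysis was possible because there is 1 group. Depth is unknown, and its part in the shorter list of replicate 1 was not tested.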

Other observations

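The genes of the elongation step had the highest share bound of the translation lists, with values that the text above gives only as a count. In the main list eef-1G (signal 189.0, summit 41 bp upstream), eef-2 (183.0, at the 5′ end) and eef-1B.1 (89.59, 10 bp upstream) had summits closer to the gene than any upstream rps summit, while eef-1A.2 (176.6) and eef-1A.1 (80.85) had them 357 and 335 bp upstream. In replicate 1 and replicate 2 the signals were 82.16 and 104.9 at eef-1G, 85.58 and 97.62 at eef-2, 45.15 and 54.62 at eef-1B.1, 92.14 and 79.03 at eef-1A.2, and 28.88 and 64.19 at eef-1A.1.

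Among the bound large subunit genes, rpl-3 had 255.9 in replicate 1 and 343.0 in replicate 2, and rpl-35 had 180.5 and 251.4. Of the 3 rps genes that share a divergent promoter region with an rpl gene (rps-10 with rpl-24.1, rps-14 with rpl-36 and rps-30 with rpl-39) none was bound. Of all 22 rps genes with a divergent neighbour 13 were not bound, so nothing is read from this count of 3 genes.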
